A study of Mus musculus with 10 samples.

Results

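Mitosis and spindle genes were described here as a module of 45 genes, grouped by what their products do in dividing cells. The list was set with earlier results of these data known. A gene was measured where a probe set of the array, a group of short probes for a transcript, named that gene and no other in the platform annotation. Where a gene had several, the brightest on average across the 10 arrays stood for it. This gave 44 of the 45 genes, of 18193 genes in all; Ccnb1 is not analysed here. The tissue was the dental mesenchyme of the lower incisor of wild-type C57BL/6J mice at postnatal day 60, taken 2 weeks after resection of the inferior alveolar nerve, which carries sensation from the lower teeth, on 1 side. Denervated denotes the 5 arrays from the resected side and contralateral the 5 from the intact side of the jaw. The contralateral incisors came from operated animals, and no sham operation is named in the labels, so nerve loss and surgery cannot be told apart. Arrays with the same sample number were paired, since the design used both incisors of 5 mice.

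The mouse incisor grows throughout life, and new cells are supplied by stem cells at its proximal end, whose rapidly dividing progeny lie next to them. Entry into mitosis is driven by CDK1 with its cyclins. The spindle checkpoint then holds cells until all chromosomes are attached through their kinetochores, and the anaphase-promoting complex releases them by destroying cyclins and the inhibitor of chromosome separation. Transcripts of most of these genes accumulate late in the cell cycle and are low in resting cells, which makes them common markers of dividing cells. In whole tissue, fewer dividing cells and less RNA per dividing cell cannot be told apart.

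Values are log2 intensities after between-array normalization by the authors, with array medians between 1.48 and 1.54. Averages under 2, where the scale is compressed, were found for 40.8% of the 18193 genes and for 2 of the 44 members, Aurka and Kif18b. In 24 of 44 members the average was at least 4, against 43.5% of all genes. Levels of different genes are not compared, since probe sets differ in brightness. The tissue label was set beside 15 markers of dental mesenchyme and odontoblasts, of which 13 had a mean of at least 4. Epithelial transcripts were also present, with 17 of 19 markers of dental epithelium at a mean of at least 4. These counts therefore do not separate mesenchyme from epithelium. The log2 difference between the 3' and 5' control probe sets, a sign of RNA integrity, ran from 0.46 to 0.70 for Gapdh and from 1.77 to 2.25 for Actb over the 10 arrays. Contralateral array 3, which stands apart below, lay inside these ranges at 0.60 and 1.97.

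The module was low on 1 contralateral array and close together on most others. The module mean, the average over the 44 genes of each gene's log2 value minus its own mean over the 10 arrays, was 0.12, 0.32, -0.05, -0.08 and 0.11 in denervated arrays 1 to 5. It was 0.07, 0.08, -0.62, 0.09 and -0.05 in contralateral arrays 1 to 5. Contralateral array 3 lay 0.67 below the mean of the 4 other contralateral arrays, whose SD was 0.06. Denervated array 2 was the highest, at 0.29 above the mean of the other 4 denervated arrays. The group means were 0.08 ± 0.16 in denervated and -0.08 ± 0.30 in contralateral arrays (SD, n = 5), a difference of 0.17, smaller than the SD of the contralateral group. Without contralateral array 3 the difference was 0.03, and without that array and denervated array 2 it was -0.03.

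**Figure D1:**
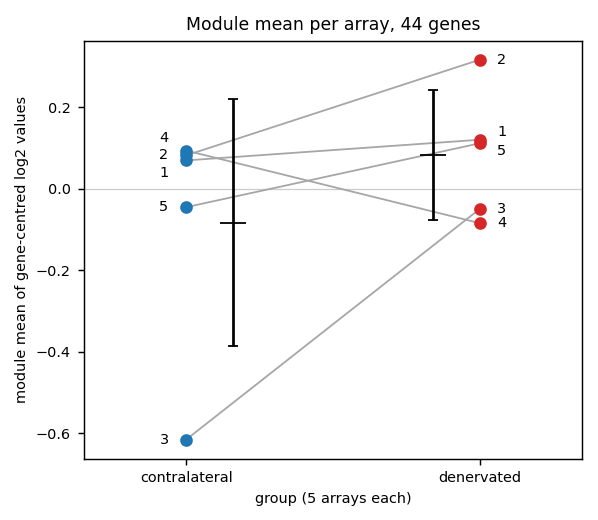
Module mean of 44 mitosis and spindle genes on each of 10 arrays, in log2 units relative to each gene's mean; points are arrays, numbers are the sample numbers, lines join arrays of equal number, and black bars are group means with SD (n = 5). Contralateral array 3 sits at -0.62, and the 9 other arrays lie between -0.08 and 0.32.

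The pairs did not all point the same way. Denervated minus contralateral, the module mean differed by 0.05, 0.23, 0.57, -0.18 and 0.16 in pairs 1 to 5. The largest of these came from the pair that holds contralateral array 3, and pair 4 went the other way. By genes, 25, 35, 42, 7 and 32 of the 44 members were higher on the denervated side in pairs 1 to 5. Only 4 members were higher in all 5 pairs, namely Aurkb, Kif11, Cdk5rap2 and Cep55, and 0 were lower in all 5; over all genes 6.58% were higher and 3.8% lower in every pair.

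The low array was shared by nearly the whole module. Contralateral array 3 held the lowest of the 10 values for 38 of 44 members, against 11.1% of all genes. It lay below the 4 other contralateral arrays for 40 members, against 20.9% of all genes. The median gap to the mean of those 4 arrays was -0.73 over the members and -0.02 over all genes. The gap was widest for Aspm, a spindle pole gene, at -1.57, for Kif23 at -1.33 and for Bub1 at -1.21. Denervated array 2 held the highest of the 10 values for 25 of 44 members, against 21.2% of all genes, and lay above the 4 other denervated arrays for 30, against 29.4%. The array choice in these sentences was made after its values were seen, so these counts describe the array and are no test.

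**Figure D2:**
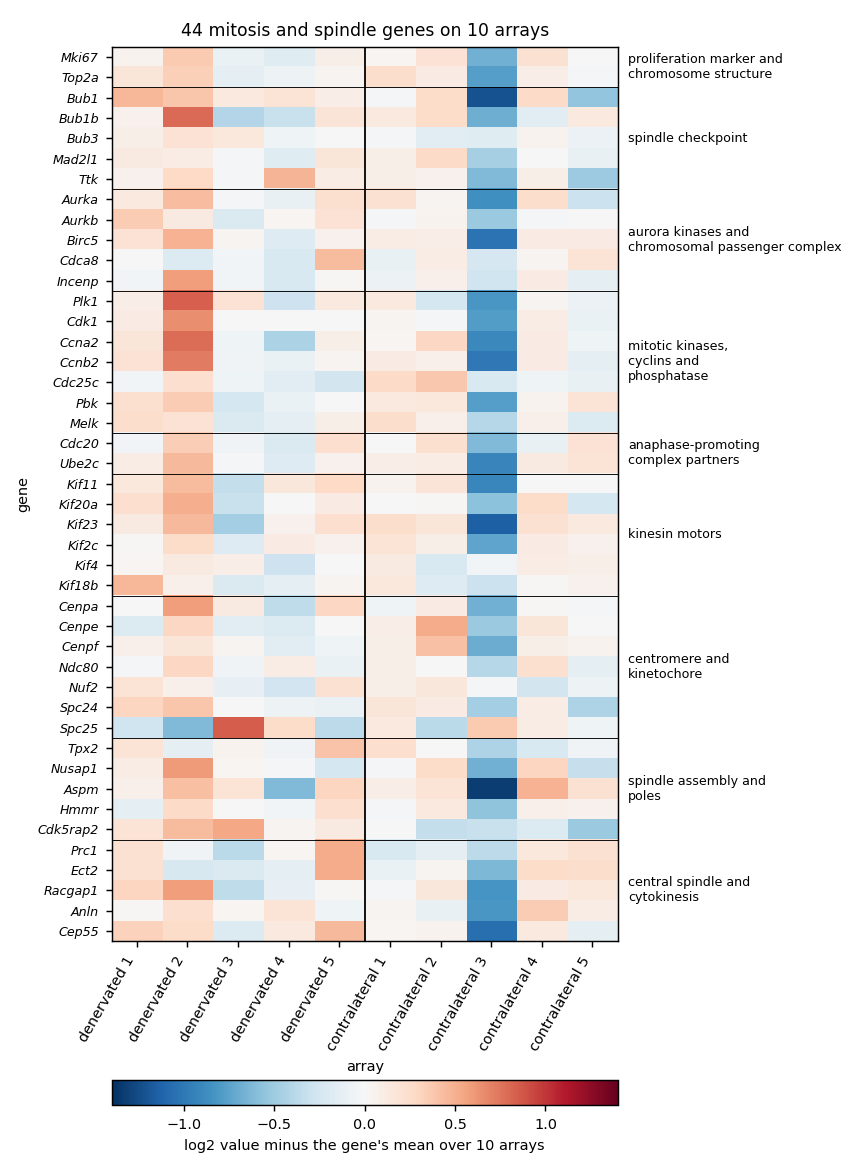
Heat map of the 44 genes (rows, ordered by role) on the 10 arrays (columns); colour is the log2 value minus the gene's mean over 10 arrays, blue below and red above. The column of contralateral array 3 is below 0 (blue, pale for Nuf2 and Kif4) in all but 1 row, that of Spc25, and the column of denervated array 2 is above 0 in 39 of 44 rows.

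The upstream sequences of these genes are shown because the module moves together across arrays and because late cell cycle genes are known for 2 short promoter elements. The cell cycle genes homology region, or CHR, is the site where MuvB complexes repress such genes in resting cells and, with MYBL2 and FOXM1, activate them in dividing ones. The CCAAT box is bound by NF-Y. RefSeq promoter entries (GRCm38.p6) matched 36 of the 44 members, with 40 promoters in all, and the 250 bases before each gene start were searched on both strands. The CHR was searched for as TTTGAA and as the known variant TTCGAA, the CCAAT box by the letters of its name, and E2F sites as TTTCCCGC, TTTCGCGC, TTTGCCGC or TTTGGCGC. A CCAAT was found in 72.5% of the 40 promoters and in 33.8% of all 32851 promoters of that length. A CHR within 100 bases of the start was found in 22.5% against 6.13%, and within 250 bases in 37.5% against 17.1%. A CCAAT within 100 bases was found in 65% against 18.9%. An E2F match within 250 bases was found in 2.5% against 1.86%, and within 100 bases in 0% against 0.846%. The last 150 bases before the start are given for the 6 members with the smallest unadjusted p among those with a CHR within 100 bases, with both motifs in capitals. On the opposite strand the CHR reads TTCAAA in these stretches, while the CCAAT box reads ATTGG.
Bub3 (chr7:131560220-131560369, plus strand): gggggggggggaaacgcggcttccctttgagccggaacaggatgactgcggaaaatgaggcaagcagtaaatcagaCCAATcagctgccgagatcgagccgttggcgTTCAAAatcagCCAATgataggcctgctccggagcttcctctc
Cep55 (chr19:38054891-38055040, plus strand): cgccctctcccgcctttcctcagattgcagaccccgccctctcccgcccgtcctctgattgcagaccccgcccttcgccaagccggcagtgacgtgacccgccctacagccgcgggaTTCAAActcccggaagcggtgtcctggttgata
Cdk1 (chr10:69352913-69353062, minus strand): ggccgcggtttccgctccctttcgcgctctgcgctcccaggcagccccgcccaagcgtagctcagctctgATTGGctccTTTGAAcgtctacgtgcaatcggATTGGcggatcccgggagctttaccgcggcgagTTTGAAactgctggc
Kif11 (chr19:37376232-37376381, plus strand): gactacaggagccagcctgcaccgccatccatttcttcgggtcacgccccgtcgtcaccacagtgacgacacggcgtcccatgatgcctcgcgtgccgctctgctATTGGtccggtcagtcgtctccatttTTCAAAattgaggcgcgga
Prc1 (chr7:80294326-80294475, plus strand): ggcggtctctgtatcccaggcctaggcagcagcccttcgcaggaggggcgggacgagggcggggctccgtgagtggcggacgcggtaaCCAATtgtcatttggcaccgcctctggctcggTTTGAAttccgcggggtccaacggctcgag
Ube2c (chr2:164769779-164769928, plus strand): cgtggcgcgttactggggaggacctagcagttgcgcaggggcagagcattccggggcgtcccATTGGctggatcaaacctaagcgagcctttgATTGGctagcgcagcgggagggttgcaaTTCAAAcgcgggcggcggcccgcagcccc

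In 5 of these 6 sequences a CCAAT lies 5' of the CHR nearest to the start, and Cep55 has no CCAAT in the stretch shown. In Kif11 the CHR begins 19 and the CCAAT box 45 bases before the start. Cdk1 holds 2 CHR and 2 CCAAT matches, with the first bases of the CHR matches 71 and 15 bases before the start, and the only E2F match of the 6 stretches, TTTCGCGC, left in lower case above. None of the matches in capitals overlap. The median gap of contralateral array 3 was -0.79 in the 9 members with a CHR within 100 bases and -0.73 in the 27 others with a promoter entry. Some of these 27, such as Ccnb2, hold a CHR farther upstream, and bases after the start were not searched. The split is therefore a description and no test of the motif. A match is a description of letters and not of a bound site.

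The general proliferation genes showed the module's pattern plainly. Mki67 encodes Ki-67, a protein that coats mitotic chromosomes. In denervated arrays 1 to 5 Mki67 was at 6.50, 6.83, 6.36, 6.29 and 6.53, and in contralateral arrays 1 to 5 at 6.49, 6.66, 5.78, 6.66 and 6.45. Apart from contralateral array 3, the contralateral values lay inside the denervated range. Its difference was 0.09 ± 0.17 (95% confidence interval -0.27 to 0.46, limma's adjusted p = 0.916), or -0.06 without contralateral array 3. Top2a encodes the topoisomerase that untangles replicated chromosomes. Top2a had log2 values of 7.02, 7.19, 6.72, 6.78 and 6.89 in denervated arrays 1 to 5 and of 7.10, 6.97, 6.08, 6.95 and 6.82 in contralateral arrays 1 to 5. The lowest value was again contralateral array 3, and the difference of 0.14 ± 0.18 turned to -0.04 without it. Both other probe sets of Top2a, with means below 2, had a lower denervated mean.

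Among the spindle checkpoint genes, which delay anaphase, all 5 had a higher denervated mean, with a median difference of 0.15, although Mad2l1 turned lower with arrays centred on their median and Bub1b and Bub3 with the mean of each gene's probe sets. Without contralateral array 3, 3 of 5 were higher, with a median of 0.13. Bub1 encodes a checkpoint kinase at the kinetochore. The denervated arrays 1 to 5 gave 4.28, 4.20, 3.95, 4.00 and 3.90 for Bub1 and the contralateral arrays 3.78, 4.07, 2.59, 4.07 and 3.26. Contralateral arrays 3 and 5 were low and the denervated arrays lay close together. Its difference was 0.51 ± 0.25 (unadjusted p = 0.0684, limma's adjusted p = 0.79), and 0.27 without contralateral array 3. Ttk encodes MPS1, the kinase that starts the checkpoint. Its log2 value was 3.72, 3.94, 3.63, 4.13 and 3.76 in denervated arrays 1 to 5 and 3.74, 3.71, 3.04, 3.74 and 3.14 in contralateral arrays 1 to 5. Contralateral arrays 3 and 5 were again the low ones, the difference was 0.36 ± 0.16 (unadjusted p = 0.0478, limma's adjusted p = 0.79), and without contralateral array 3 it was 0.25. The other probe set of Ttk, with a mean below 2, went the other way. Bub3 encodes the partner that carries BUB1 to the kinetochore. In denervated arrays 1 to 5 Bub3 was at 7.74, 7.85, 7.80, 7.60 and 7.66, and in contralateral arrays 1 to 5 at 7.62, 7.51, 7.48, 7.70 and 7.57. The groups overlapped in a narrow range, and the difference was 0.15 ± 0.07, or 0.13 without contralateral array 3. Of the 5 probe sets of Bub3 only 2 had this direction, and the 3 others had means below 2. The checkpoint genes Bub1b and Mad2l1 differed by 0.12 ± 0.24 and 0.09 ± 0.13, and by -0.04 and -0.02 without that array.

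The aurora kinases and the chromosomal passenger complex correct faulty chromosome attachments and guide cytokinesis, and all 5 of their genes had a higher denervated mean (Cdca8 turned lower with centred or quantile-normalized arrays). With contralateral array 3 left out, 4 of 5 were higher, and their median difference went from 0.20 to 0.07. Aurkb encodes the kinase of that complex. Aurkb had log2 values of 4.16, 3.94, 3.60, 3.84 and 4.01 in denervated arrays 1 to 5 and of 3.80, 3.86, 3.29, 3.78 and 3.80 in contralateral arrays 1 to 5. All 5 pairs were higher on the denervated side, by 0.36, 0.08, 0.31, 0.06 and 0.21, and the difference was 0.20 ± 0.13 (limma's adjusted p = 0.804), or 0.10 without contralateral array 3. Birc5 encodes survivin, which anchors the complex at centromeres. The denervated arrays 1 to 5 gave 5.29, 5.57, 5.12, 4.90 and 5.14 for Birc5 and the contralateral arrays 5.19, 5.17, 4.05, 5.20 and 5.20. The 4 other contralateral arrays spanned only 5.17 to 5.20, with contralateral array 3 more than a log2 unit below them at a gap of -1.14. Its difference of 0.24 ± 0.22 became 0.01 without that array. The other members, the borealin gene Cdca8, the scaffold gene Incenp and the spindle pole kinase gene Aurka, differed by 0.00 ± 0.13, 0.12 ± 0.14 and 0.27 ± 0.20, and by -0.06, 0.07 and 0.09 without that array. Both other probe sets of Cdca8, with means of 4.67 and 2.94, had higher denervated means, by 0.30 and 0.11. Their gaps on contralateral array 3 were -1.12 and -0.57, against -0.29 for the chosen one.

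Of the kinases, cyclins and phosphatase of mitotic entry, 6 of 7 had a higher denervated mean (Melk turned lower with centred or quantile-normalized arrays), with a median difference of 0.21 that was 0.01 without contralateral array 3, where 4 of 7 were higher. Cdk1 encodes the kinase that drives entry into mitosis. Its log2 value was 4.47, 5.01, 4.35, 4.35 and 4.36 in denervated arrays 1 to 5 and 4.39, 4.33, 3.57, 4.46 and 4.26 in contralateral arrays 1 to 5. Denervated array 2 was high, contralateral array 3 low, and the 8 others lay between 4.26 and 4.47. Its difference was 0.31 ± 0.18, and 0.15 without contralateral array 3. Ccna2 encodes cyclin A2, the partner of CDK1 and CDK2 before mitosis. In denervated arrays 1 to 5 Ccna2 was at 5.76, 6.37, 5.53, 5.15 and 5.68, and in contralateral arrays 1 to 5 at 5.62, 5.87, 4.69, 5.71 and 5.52. The same 2 arrays were the highest and lowest, and the difference was 0.21 ± 0.25, or 0.01 without contralateral array 3. Plk1 encodes the polo kinase of spindle and centrosome maturation. Plk1 had log2 values of 3.15, 3.90, 3.26, 2.77 and 3.19 in denervated arrays 1 to 5 and of 3.19, 2.81, 2.24, 3.10 and 2.97 in contralateral arrays 1 to 5. Its difference of 0.39 ± 0.22 was 0.24 without contralateral array 3 and 0.23 without denervated array 2. The cyclin B2 gene Ccnb2 differed by 0.33 ± 0.23, or 0.13 without contralateral array 3. The kinase genes Pbk and Melk differed by 0.10 ± 0.19 and 0.08 ± 0.13, and by -0.08 and -0.01 without that array. Cdc25c encodes a phosphatase that activates CDK1. The denervated arrays 1 to 5 gave 2.75, 3.02, 2.73, 2.63 and 2.53 for Cdc25c and the contralateral arrays 3.05, 3.17, 2.58, 2.72 and 2.68. It had the lowest difference of the module, -0.11 ± 0.13 (limma's adjusted p = 0.881), with 4 of 5 pairs lower on the denervated side and overlapping groups. Without contralateral array 3 it was -0.17.

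Ube2c and Cdc20 serve the anaphase-promoting complex, as its ubiquitin donor and its activator. Ube2c had log2 values of 6.01, 6.36, 5.88, 5.72 and 5.97 in denervated arrays 1 to 5 and of 5.99, 6.01, 4.98, 6.04 and 6.09 in contralateral arrays 1 to 5. The 9 other arrays lay between 5.72 and 6.36, and contralateral array 3 was below them. The difference of 0.16 ± 0.21 turned to -0.05 without contralateral array 3. Cdc20 differed by 0.12 ± 0.16, or -0.02 without that array.

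The kinesin genes encode motors that build and elongate the spindle. Of these 5 of 6 had a higher denervated mean, with a median difference of 0.13, and without contralateral array 3 these were 3 of 6 and 0.00. Kif11 encodes the motor that pushes the spindle poles apart. Its log2 value was 4.76, 5.05, 4.28, 4.77 and 4.89 in denervated arrays 1 to 5 and 4.66, 4.79, 3.70, 4.62 and 4.62 in contralateral arrays 1 to 5. It was higher in all 5 pairs, by 0.10, 0.26, 0.58, 0.15 and 0.27, although the groups overlapped. The difference was 0.27 ± 0.21, or 0.08 without contralateral array 3. Kif23, a motor of the central spindle, and Kif20a, a motor of cytokinesis, differed by 0.15 ± 0.27 and 0.22 ± 0.17, Kif2c, which removes faulty attachments, by 0.11 ± 0.17, and Kif18b, a motor of microtubule ends, by 0.10 ± 0.13. These differences without contralateral array 3 were -0.11, 0.10, -0.06 and 0.04. Kif4, which encodes a chromosome-bound motor, differed by -0.02 ± 0.10 and had a gap of only -0.07 on contralateral array 3.

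Centromere and kinetochore genes showed the smallest median difference of the 9 role groups, 0.04, with 5 of 7 higher (Cenpf and Nuf2 turned lower with centred or quantile-normalized arrays, and Ndc80 with centred ones). The median without contralateral array 3 was 0.02, again with 5 of 7 higher. Cenpa encodes the histone variant that marks centromeres. In denervated arrays 1 to 5 Cenpa was at 5.09, 5.67, 5.22, 4.73 and 5.37, and in contralateral arrays 1 to 5 at 5.02, 5.20, 4.41, 5.10 and 5.06. Contralateral array 3 and denervated array 2 were the extremes, and the difference was 0.26 ± 0.19, or 0.12 without contralateral array 3. Ndc80 encodes the rod that grips spindle microtubules. Ndc80 had log2 values of 2.61, 2.92, 2.58, 2.73 and 2.54 in denervated arrays 1 to 5 and of 2.71, 2.63, 2.23, 2.85 and 2.50 in contralateral arrays 1 to 5. The groups overlapped and the difference was 0.09 ± 0.12, or 0.00 without contralateral array 3. Cenpe encodes a kinetochore motor. The denervated arrays 1 to 5 gave 2.65, 3.13, 2.69, 2.65 and 2.85 for Cenpe and the contralateral arrays 2.94, 3.36, 2.32, 3.02 and 2.85. Its difference was -0.10 ± 0.17, with pairs 1 to 5 at -0.29, -0.23, 0.36, -0.36 and 0.00, and -0.25 without contralateral array 3. Cenpf, a kinetochore protein gene, and Spc24, of the same complex as Ndc80, differed by 0.03 ± 0.17 and 0.21 ± 0.16, and by -0.14 and 0.12 without contralateral array 3.

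The NDC80 complex, which joins kinetochores to microtubules, has 4 subunits, and their genes had unlike values on contralateral array 3. Spc25 was high there. Its log2 value was 5.75, 5.42, 6.88, 6.28 and 5.67 in denervated arrays 1 to 5 and 6.16, 5.66, 6.40, 6.13 and 5.97 in contralateral arrays 1 to 5. It was highest in denervated array 3 and lowest in denervated array 2, and contralateral array 3 lay 0.42 above the mean of the other contralateral arrays, where Ndc80 and Spc24 had gaps of -0.44 and -0.46. Nuf2 had a gap of 0.01 and a difference of 0.04 ± 0.11. The difference of Spc25 was -0.06 ± 0.25 (95% confidence interval -0.61 to 0.49), or 0.02 without contralateral array 3, and its denervated SD of 0.58 was the widest of the module.

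The spindle assembly group held the gene with the smallest p of the module. Cdk5rap2 encodes a centrosome protein that recruits microtubule nucleation. In denervated arrays 1 to 5 Cdk5rap2 was at 3.98, 4.24, 4.34, 3.83 and 3.92, and in contralateral arrays 1 to 5 at 3.80, 3.46, 3.49, 3.61 and 3.28. All 5 denervated arrays were above all 5 contralateral arrays, which held for 1 of 44 members and for 0.528% of all genes. Its difference was 0.54 ± 0.12 (95% confidence interval 0.27 to 0.80, unadjusted p = 0.00105, limma's adjusted p = 0.79, or 0.355 with the replicate block), and it was 0.53 without contralateral array 3, where its gap was -0.05. Both other probe sets of Cdk5rap2 had a higher denervated mean as well, at levels below 2. The gene did not pass after adjustment over all genes. The spindle genes Tpx2, Nusap1, Aspm and Hmmr differed by 0.18 ± 0.13, 0.18 ± 0.20, 0.14 ± 0.32 and 0.13 ± 0.14, and by 0.10, 0.03, -0.17 and 0.00 without contralateral array 3. Tpx2 and Nusap1 turned lower with the mean of each gene's probe sets. Their probe sets with a lower denervated mean all had mean levels below 2.

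Genes of cytokinesis, which splits the daughter cells, all had a higher denervated mean (Ect2 turned lower with centred arrays), with a median difference of 0.17. Only 2 of 5, Cep55 and Prc1, were higher without contralateral array 3, and the median was -0.01. Cep55 encodes a midbody protein of abscission, the last step of cytokinesis. Cep55 had log2 values of 4.98, 4.92, 4.47, 4.80 and 5.11 in denervated arrays 1 to 5 and of 4.69, 4.71, 3.61, 4.80 and 4.53 in contralateral arrays 1 to 5. It was higher in all 5 pairs, by 0.29, 0.21, 0.86, 0.01 and 0.58, and the difference was 0.39 ± 0.21 (limma's adjusted p = 0.793), or 0.18 without contralateral array 3. The other probe set of Cep55, with a mean below 2, went the other way. Anln encodes anillin, the scaffold of the contractile ring. The denervated arrays 1 to 5 gave 4.83, 5.04, 4.84, 5.00 and 4.75 for Anln and the contralateral arrays 4.84, 4.70, 4.00, 5.16 and 4.92. Outside contralateral array 3 the groups overlapped, and the difference of 0.17 ± 0.18 turned to -0.01. Prc1, which bundles central spindle microtubules, differed by 0.14 ± 0.17, and Ect2 and Racgap1, which switch on the contractile ring, by 0.07 ± 0.19 and 0.17 ± 0.22. Leaving out that array gave differences of 0.06, -0.07 and -0.01.

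Compared by group, most members had a higher mean in denervated incisors, and no member passed. The mean was higher in 40 of 44 members, against 55.8% of all genes, with differences from -0.11 to 0.54, a median of 0.15 and a median over all genes of 0.02. After Benjamini-Hochberg adjustment 0 of 44 members passed limma's test, as did 0 of 18193 genes (0%), the smallest adjusted p of a member being 0.79. With an unadjusted p under 0.05 the fit held 2 higher members, Ttk and Cdk5rap2, and 0 lower, against 4.1% higher and 2.11% lower over all genes. With the replicate block, in which the pair is a term of the fit, 6 members were higher at that level and 0 lower, against 6.99% and 2.93% over all genes; the smallest adjusted p of a member was then 0.355. Those 6 were Cdk5rap2, Ttk, Kif11, Cep55, Aurkb and Bub1.

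The direction of many members depended on contralateral array 3. Without it 25 of 44 members had a higher denervated mean, against 55.4% of all genes. The median difference of the members was then 0.014, against 0.016 over all genes, and 17 members changed sign. Of the members, 1 had an unadjusted p under 0.05, namely Cdk5rap2, against 2.82% of all genes higher and 1.67% lower. That setting breaks pair 3, since it keeps denervated array 3. When the number 3 arrays of both groups were left out, 9 members changed sign. The module mean of the remaining pairs 1, 2, 4 and 5 differed by 0.05, 0.23, -0.18 and 0.16. With quantile normalization contralateral array 3 lay -0.58 from the other contralateral arrays and held the lowest value of 33 members, and with arrays centred on their median these were -0.55 and 32. The module difference was 0.09 and 0.07. In these 2 scalings 36 and 32 members were higher, against 50.2% and 26.9% of all genes. Over all genes at an unadjusted p under 0.05, 746 were higher and 383 lower with the deposited values, 507 and 544 after quantile normalization, and 261 and 1190 with centred arrays.

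**Figure D3:**
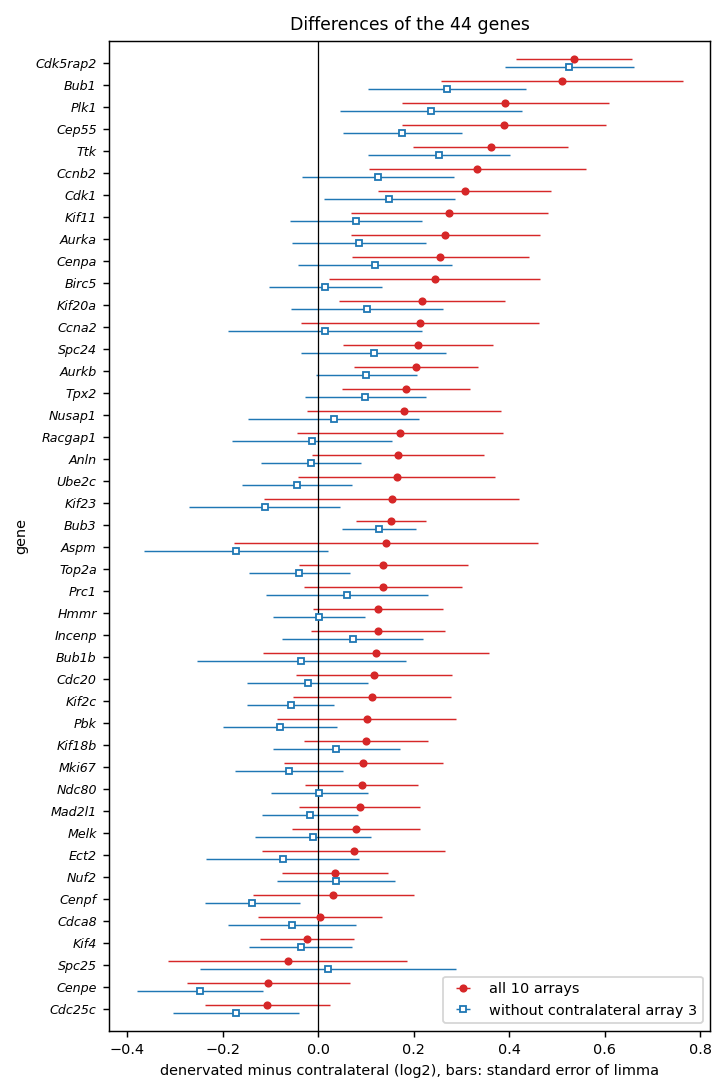
Denervated minus contralateral log2 difference of each of the 44 genes with limma's standard error, for all 10 arrays (filled circles) and without contralateral array 3 (open squares). Without that array the median moves from 0.15 to 0.01, while Cdk5rap2 stays at 0.53.

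Markers of several other cell types also had unequal group means, and 0 of these genes passed after adjustment. Over all genes 55.8% had a higher denervated mean. At limma's unadjusted p under 0.05, 4.1% of all genes were higher and 2.11% lower. Of the macrophage markers 16 of 16 had a higher denervated mean, with a median difference of 0.45 and 9 higher at an unadjusted p under 0.05. Pericyte and smooth muscle markers were higher in 11 of 12, with a median of 0.34 and 5 at that level. Endothelial markers were higher in 14 of 14, with a median of 0.17 and 0 at that level. By pairs, 14 of 14 were higher in pairs 2 and 3 but only 4 of 14 in each of pairs 1, 4 and 5. Schwann cell markers were higher in 10 of 11, with a median of 0.60 and 0 at that level. Epithelial markers were lower in 18 of 19, with a median of -0.40 and 0 at that level. Mesenchyme markers were higher in 8 of 15, with a median of 0.02. At that level 1 of them was higher, Pax9 at 0.41, and 2 were lower, Dspp at -0.18 and Nes at -0.35. Without contralateral array 3 the macrophage, pericyte, endothelial, Schwann and epithelial medians were 0.49, 0.39, 0.19, 0.50 and -0.42, while that of the module was 0.01. The Schwann median was 0.08 without contralateral array 3 and denervated array 2, and the epithelial median was -0.04 without the number 3 arrays. The part of these cells in the module's group difference was not tested.

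Further probe sets of the same genes, which the choice of 1 probe set per gene left out, were read for the low array too. There were 54 of them for 28 members. Among the 16 with a mean of at least 2, contralateral array 3 was the lowest of 10 in 12, with a median gap of -0.57, and 15 had the direction of the chosen probe set. Among the 38 with a mean below 2 these counts were 4 and 16, with a median gap of -0.01.

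Other genes of cell division were lower on contralateral array 3 too, by less. A list of 92 further mitosis genes (condensins, other kinetochore and centrosome genes and mitotic regulators) had a score on that array of -0.27, which was -0.28 from the other contralateral arrays, and 49 of 92 had their lowest value there. In the group comparison 67 of 92 were higher, against 55.8% of all genes, with a median of 0.10. At an unadjusted p under 0.05 there were 7 higher (11 with the replicate block) and 0 lower, against 4.1% (6.99% with the block) and 2.11% of all genes, and 0 passed after adjustment. When contralateral array 3 was left out, 56 of 92 were higher, the median was 0.04, and 3 were higher at that level, against 2.82% of all genes. Over all 10 arrays those with the smallest p were Rcc1, which charges the GTPase Ran at chromosomes, at 0.54 ± 0.15, Bora, an activator of aurora A, at 0.36 ± 0.12, and Tacc3, a spindle protein gene, at 0.33 ± 0.12. On the lower side they were Kif14, a kinesin of cytokinesis, at -0.13 ± 0.06 with a mean level of only 0.66, the centrosome gene Cntrob at -0.25 ± 0.14 and Ckap5, a microtubule polymerase gene, at -0.14 ± 0.10. The 38 genes of G1/S and replication had a score of -0.40 on contralateral array 3, 23 of them having their lowest value there. Of these 31 were higher in the group comparison, with a median of 0.13. At an unadjusted p under 0.05 there were 5 higher (10 with the replicate block) and 0 lower, against the same shares of all genes. With that array left out, 28 of 38 were higher, the median was 0.05, and 1 was higher at that level. Dbf4, the activator of the replication kinase CDC7, differed by 0.26 ± 0.09, the helicase gene Mcm3 by 0.38 ± 0.14 and Gins2 by 0.49 ± 0.21. On the lower side the thymidylate synthase gene Tyms, with a mean below 2, differed by -0.11 ± 0.09, Fen1 by -0.14 ± 0.15 and Cdc7 by -0.11 ± 0.13.

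Genes of regulators linked to the elements searched for above were measured as well. The 16 genes, those of the MuvB, MYB, FOXM1, E2F and NF-Y complexes and the kinase gene Dyrk1a, had a score of -0.08 on contralateral array 3. Contralateral array 2 was at -0.10. Their median group difference was 0.06, or -0.04 with arrays centred on their median. Of these genes 12 of 16 were higher, against 55.8% of all genes. At an unadjusted p under 0.05 there were 0, against 4.1% higher and 2.11% lower over all genes. The NF-Y subunit gene Nfyc differed by 0.11 ± 0.06, the repressor gene E2f4 by 0.11 ± 0.08 and the MuvB gene Lin9 by 0.12 ± 0.12, and lower were Rbl1, which encodes p107, at -0.04 ± 0.08, Mybl2 at -0.04 ± 0.11 and Foxm1 at -0.03 ± 0.14. Mybl2, Lin52 and E2f4 had means below 2.

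**Figure D4:**
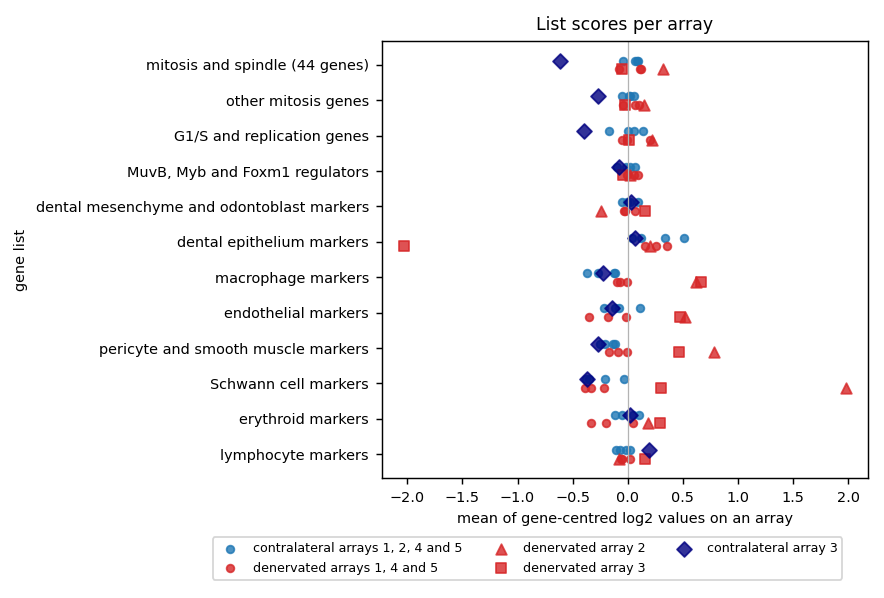
Scores (mean of gene-centred log2 values) of 4 cell division lists and 8 marker lists on each of the 10 arrays; each point is an array, with contralateral array 3 and denervated arrays 2 and 3 drawn by their own symbols. Contralateral array 3 is the lowest array for mitosis and spindle genes, other mitosis genes and G1/S genes. It is also the lowest for pericyte and smooth muscle markers, at -0.27 beside -0.25 on contralateral array 4. It lies within the span of the other contralateral arrays in 6 of 8 marker lists.

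Cell type markers were set beside the 2 arrays that carry the module's extremes. On contralateral array 3 the scores of mesenchyme, epithelium, macrophage, endothelial, pericyte and smooth muscle, Schwann, erythroid and lymphocyte markers lay away from the average of the 4 remaining contralateral arrays by 0.02, -0.19, -0.01, -0.07, -0.09, -0.13, 0.02 and 0.24. None of these list scores was as far off as the module's -0.67, but single markers were. Odam and Klk4 of the epithelial list had gaps of -1.39 and -0.99. Of the pericyte and smooth muscle list, Tagln and Acta2 had gaps of -1.19 and -0.83, and Kcnj8 one of 0.66. The array held the lowest of 10 values for 5 of 12 pericyte and smooth muscle and 0 of 19 epithelial markers, against 11.1% of all genes. The part of these cells in the low array was not tested. Denervated array 2 stood apart in several lists, its score of Schwann cell markers being 2.14 above the other denervated arrays, with 10 of 11 markers highest there. For pericyte and smooth muscle, endothelial and macrophage markers these gaps were 0.74, 0.54 and 0.49. The log2 summed level of the Schwann markers ran from 7.90 to 10.18 in denervated and from 7.78 to 8.31 in contralateral arrays, that of pericyte and smooth muscle markers from 11.06 to 11.81 and from 10.89 to 11.06. For endothelial markers it ran from 8.37 to 9.28 and from 8.55 to 8.90, and for macrophage markers from 10.58 to 11.39 and from 10.35 to 10.54. Of the 11 Schwann markers 6 had a mean below 2, as had 1 of 12, 0 of 14 and 1 of 16 in the 3 other lists. The part of these cells in the high module mean of that array was not tested. Denervated array 3 had an epithelial score of -2.03, the lowest of the 10, beside a module mean of -0.05. Its macrophage, endothelial and pericyte and smooth muscle scores were 0.67, 0.47 and 0.46.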

How the data were processed

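Total RNA of 10 incisor mesenchyme samples was measured on Affymetrix mouse arrays. The deposited values are log2 intensities that the authors made with RMA, a method that subtracts background, evens out arrays and combines the probes of a set, per the submitters' processing notes. No version and no detection calls were used here, and the low end of this scale is compressed.

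From these values, 64 control probe sets were dropped, 34945 of the 45037 others named 1 gene, and the probe set with the highest mean stood for each of 18193 genes. Differences were fitted with limma 3.58.1 in R 4.3.3 (lmFit and eBayes, both groups, no block), two-sided, with Benjamini-Hochberg adjustment over all genes and a threshold of 0.05. The value after ± beside a gene's difference is the standard error of this fit, which leaves out the pairing. With the replicate block it was narrower for some genes (Kif11, 0.09 for 0.21) and wider for others (Bub3, 0.09 for 0.07). The script was tested on simulated data. The named genes are a preset group of well-known members, the 5 highest and 3 lowest differences and the 5 smallest p; of the other division lists, the 3 smallest p in each direction. Members, lists and this rule were chosen with earlier results of these data known.

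Sample numbers were taken to pair the incisors of a mouse, since every same-numbered pair deviated together (correlations of deviations from the group means 0.18 to 0.57, against -0.41 to 0.22 for other combinations). In 4 of 5 denervated arrays the own number correlated best; denervated array 3 correlated at 0.18 with contralateral array 3, the low array, and at 0.22 with contralateral array 1. The number as a block, other scalings, probe set choices, a level filter, an intensity trend and leaving out arrays were tried. With 5 arrays a group, their number limits the precision. Promoters came from RefSeq, GRCm38.p6.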

Additional observations from a re-analysis of the deposited data

Results flagged for a closer look

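In each group of 5 arrays the array farthest from the rest was set against the spread of the group with Dixon's test. It met the test's 95% critical value in 18 of the 88 group values of the members (20.5%), against 6.78% of the group values of all genes. Of these 18, 16 came from 1 array, contralateral array 3, so the 88 values are not separate trials and their share is no test against chance. Contralateral array 3 stood below its group for 16 members, against 0.77% of all genes. Its log2 values there were 5.78 for Mki67, 6.08 for Top2a, 3.29 for Aurkb, 4.05 for Birc5, 3.57 for Cdk1, 3.36 for Ccnb2, 5.13 for Pbk and 4.98 for Ube2c. For the motors Kif11, Kif23 and Kif2c they were 3.70, 2.10 and 3.20, and for Cenpa, Aspm, Hmmr, Racgap1 and Cep55 they were 4.41, 2.27, 2.18, 2.86 and 3.61. Since these genes were read from the same array, they are not independent of each other. Denervated array 2 stood above its group for Incenp at 6.65 and for Cdk1 at 5.01, and for 1.27% of all genes.

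The mean of gene-centred values stood apart on contralateral array 3 for the 44 members together, at -0.62, and for 7 of the 9 role groups. These were -0.72 for the proliferation marker and chromosome structure, -0.58 for the aurora kinases and passenger complex and -0.70 for the mitotic kinases and cyclins. They were -0.77 for the partners of the anaphase-promoting complex, -0.62 for the kinesins, -0.66 for spindle assembly and -0.74 for the central spindle and cytokinesis.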

How the results depend on the processing

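No gene passed an adjusted p of 0.05 with any setting tried; 1129 had an unadjusted p under 0.05, and 5 arrays a group limit the precision. The settings without the number 3 arrays, and without contralateral array 3 and denervated array 2, were chosen after seeing the data. The latter count was 1805 with the replicate block, 1903 for single probe sets, 535 among genes with a mean of at least 4, 721 without the number 3 arrays and 710 without contralateral array 3 and denervated array 2, and 793 (without contralateral array 5) to 1605 (without denervated array 5) with 1 array left out. The count of members at that level, 2, was 6 with the block, 5 with the block and without the number 3 arrays, 0 among genes with a mean of at least 4, 1 with each of centring, quantile normalization, an intensity trend and the mean of probe sets, and 1 to 4 with 1 array left out (4 without denervated array 3 or contralateral array 4). The count of members with a higher denervated mean, 40, was 23 of the 24 with a mean of at least 4, 18 without contralateral array 3 and denervated array 2, and 25 (without contralateral array 3) to 41 with 1 array left out. The module difference ran from 0.03 to 0.21 and the median of the members from 0.01 to 0.19 with 1 array left out, and the median of the regulator genes was -0.04 with centred arrays. Pairing by the block also moved the counts at an unadjusted p under 0.05 from 7 to 11 of the other mitosis genes and from 5 to 10 of the G1/S genes, and no gene passed after adjustment with it.

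Directions of single genes turned as follows, and the cause was not tested. With centred arrays the differences were -0.004 for Mki67, -0.011 for Mad2l1, -0.096 for Cdca8, -0.020 for Melk, -0.067 for Cenpf, -0.007 for Ndc80, -0.063 for Nuf2 and -0.025 for Ect2. With quantile normalization they were -0.033 for Cdca8, -0.020 for Melk, -0.060 for Cenpf and -0.029 for Nuf2. With the mean of probe sets they were -0.032 for Top2a, -0.011 for Bub1b, -0.005 for Bub3, -0.014 for Cenpf, -0.019 for Tpx2, -0.026 for Nusap1 and 0.039 for Fen1. Without the number 3 arrays, with or without the block, they were -0.026 for Mki67, -0.001 for Mad2l1, -0.044 for Cdca8, -0.007 for Pbk, -0.018 for Ube2c, -0.145 for Cenpf, -0.201 for Aspm, -0.015 for Ect2 and -0.001 for Anln. Without contralateral array 3 and denervated array 2 they were -0.143 for Mki67, -0.106 for Top2a, -0.218 for Bub1b, -0.034 for Mad2l1, -0.076 for Birc5, -0.007 for Cdca8, -0.059 for Incenp, -0.154 for Ccna2, -0.015 for Ccnb2, -0.156 for Pbk, -0.053 for Melk and -0.094 for Cdc20. In the same setting they were -0.137 for Ube2c, -0.206 for Kif23, -0.109 for Kif2c, -0.178 for Cenpf, -0.059 for Ndc80, 0.166 for Spc25, -0.095 for Nusap1, -0.260 for Aspm, -0.049 for Hmmr, -0.010 for Ect2, -0.137 for Racgap1 and -0.052 for Anln.

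With 1 array left out, 25 genes had differences on both sides of 0. They were Mki67 from -0.062 to 0.158, Top2a from -0.039 to 0.216, Bub1b from -0.061 to 0.239, Mad2l1 from -0.017 to 0.166, Cdca8 from -0.108 to 0.055, Incenp from -0.006 to 0.194, Pbk from -0.080 to 0.174, Melk from -0.012 to 0.150, Cdc20 from -0.022 to 0.188, Ube2c from -0.045 to 0.232, Kif23 from -0.113 to 0.293, Kif2c from -0.057 to 0.174, Kif4 from -0.080 to 0.047. They were also Kif18b from -0.003 to 0.162, Cenpe from -0.248 to 0.011, Cenpf from -0.138 to 0.137, Nuf2 from -0.023 to 0.107, Spc25 from -0.284 to 0.081, Aspm from -0.172 to 0.316, Ect2 from -0.075 to 0.147, Racgap1 from -0.013 to 0.280, Anln from -0.015 to 0.276, Rbl1 from -0.072 to 0.014, Mybl2 from -0.130 to 0.033 and Foxm1 from -0.129 to 0.072.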
